A study of Drosophila melanogaster with 4 samples.

Results

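Narrow sites of MOF occupancy on the X chromosome were taken as the enriched clusters on X that spanned under 3000 bp in the authors' list for the replicate set. This rule selected 1063 of the 1283 clusters on X and of the 6232 clusters in the whole list. The remaining 220 clusters on X, of 3000 bp or more, are called wide below. Narrow clusters made up 82.9% of the X clusters, covered 1.98 Mb or 8.81% of X, and held 67.6% of the bases of X that lay in any cluster. Wide clusters covered 4.22% of X.

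The members were selected on their measured width and chromosome alone, so both are a description and not a finding. MOF was profiled by chromatin immunoprecipitation and sequencing (ChIP-seq) with the antibody MOF Q4145 in wild-type Oregon-R embryos, a standard laboratory strain of Drosophila melanogaster, 14 to 16 h into development. The series held 2 ChIP libraries and 2 input libraries, with 1 input per ChIP library, and no mutant, treated or antibody control group. Whole embryos were crosslinked, so the values average over all their cell types. The labels used here state neither the sex of the embryos nor whether the replicates came from separate collections, so the spread between replicates may be technical. The authors provided 1 list of clusters per ChIP replicate and 1 list for both, each cluster with a start, an end and an enrichment score on a log2 scale. The depth of the libraries is not known from these lists.

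MOF is the acetyltransferase that places acetyl groups on lysine 16 of histone H4, a mark that loosens the packing of nucleosomes. In Drosophila it belongs to the MSL complex, which assembles with the roX RNAs on the single X of males, binds first at high-affinity sites and spreads from there to neighbouring active genes. It also belongs to the NSL complex, which sits at promoters of constitutively active genes on every chromosome and in both sexes. The cluster coordinates do not tell which of these complexes a site belongs to.

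Width and score were measured on the same calls and were tied to each other in a bent pattern. Member widths ranged from 1001 to 2991 bp, with a median of 1939 bp and quartiles of 1464 and 2144 bp. Scores ranged from 0.14 to 3.29, with a median of 0.51 and quartiles of 0.41 and 0.74. The 5th and 95th percentiles of the score, 0.31 and 1.64, were 2.52-fold apart in enrichment, and the highest member lay 6.85-fold above the median member. Most members were thus of similar strength, with a long tail of strong ones: 159 scored over 1 and 25 over 2.

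The shortest members were not the weakest. The 191 members of 1001 to 1300 bp had a median score of 0.50, and the median was 0.40 at 1301 to 1500 bp (87 members), 0.37 at 1501 to 1750 bp (105 members) and 0.40 at 1751 to 2000 bp (225 members). It was 0.71 at 2001 to 2250 bp (271 members), 1.22 at 2251 to 2500 bp (80 members) and 0.90 at 2501 to 2999 bp (104 members). Within 1001 to 1750 bp score and width had a Spearman rho of -0.67 across 383 members, and within 1751 to 2250 bp a rho of 0.878 across 496 members. From 2251 bp upward the rho was -0.134 across 184 members. These correlations are across clusters of 1 list that share the same libraries, and they describe the list.

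**Figure D1:**
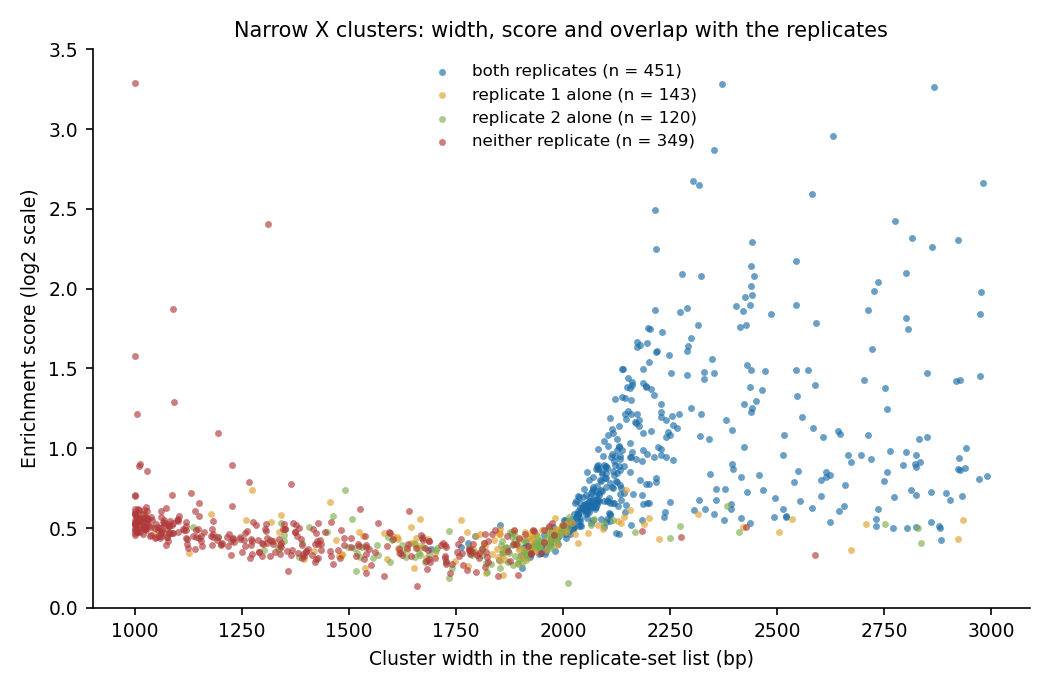
Each point is 1 of the 1063 narrow X clusters, plotted by its width in the replicate-set list (bp) and its score (log2 scale) and coloured by whether it overlaps a cluster in both replicates, in 1 or in neither. Scores decline slightly up to about 1750 bp, climb steeply around 2000 bp and spread widely above; clusters up to 1500 bp include none that recurs in both replicates.

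At the width limit, the 3 widest members spanned 2991 bp (at 6562164 to 6565154, score 0.83), 2981 bp (at 11899927 to 11902907, score 2.66) and 2977 bp (at 3055151 to 3058127, score 1.98). The 3 narrowest clusters beyond it spanned 3008 bp (at 1281172 to 1284179, score 1.76), 3018 bp (at 11684739 to 11687756, score 0.95) and 3020 bp (at 3035401 to 3038420, score 0.50). All 6 recurred in both replicates, and their scores overlapped across the limit.

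A minority of narrow X clusters was found in both replicates, and the share depended steeply on width in the replicate set. Of the 1063 members, 451 (42.4%, exact 95% interval 39.4 to 45.5%) touched a cluster in both replicates by 1 base or more, against 53.5% of all clusters in the list. A further 143 (13.5%, against 11.6% of the list) overlapped replicate 1 alone and 120 (11.3%, against 7.61% of the list) replicate 2 alone. The remaining 349 (32.8%, 30.0 to 35.7%) overlapped neither, against 27.3% of all clusters. The whole list includes wide clusters. Of the 3975 narrow clusters on the 4 large autosome arms, 48.9% overlapped both replicates (46.1 to 50.5% on single arms) and 29.7% neither. Counted against 1 replicate at a time, 55.9% of members had a counterpart in replicate 1 and 53.7% in replicate 2, against 65.1% and 61.1% of the list. The replicate-set list was made from the same libraries, so recurrence is not an independent replication. The widths in that list may likewise not be independent of recurrence. Among the 220 wide X clusters, 214 (97.3%, 94.2 to 99.0%) overlapped both replicates and 0 overlapped neither (exact 95% interval up to 1.66%).

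Members found in both replicates were a median of 2161 bp wide and scored 0.81 at the median. Those in replicate 1 alone had 1897 bp and 0.44, those in replicate 2 alone 1874 bp and 0.39, and those in neither 1282 bp and 0.45. Of the 455 members over 2000 bp, 410 (90.1%, 87.0 to 92.7%) recurred in both replicates and 4 in neither. Of the 330 members of 1501 to 2000 bp, 41 (12.4%, 9.07 to 16.5%) recurred in both and 101 in neither. Of the 278 members up to 1500 bp, 0 recurred in both (exact interval up to 1.32%), and 244 (87.8%) recurred in neither. Narrow clusters of the 4 large autosome arms had nearly the same dependence on width: 93.5% of 1858 over 2000 bp, 17.5% of 1172 at 1501 to 2000 bp and 0 of 945 up to 1500 bp were found in both replicates, and 88.1% of those 945 in neither. The single replicates held no cluster that short in part of this range: the smallest on X spanned 1302 bp in replicate 1 and 1303 bp in replicate 2, while 191 members were 1300 bp or shorter. Leaving those 191 out, a setting added once the values were known, raised the share found in both to 51.7% of 872 members.

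When each replicate was taken by its own widths, recurrence in the other replicate also rose with width, but gradually, and short clusters recurred in part. In replicate 1, 526 of its 682 narrow X clusters (77.1%, 73.8 to 80.2%) had a counterpart in replicate 2, against 81.2% of the whole replicate 1 list. In replicate 2, 543 of 675 (80.4%, 77.2 to 83.4%) had a counterpart in replicate 1, against 86.7% of the whole replicate 2 list. Both whole lists include wide clusters, and narrow clusters of the autosome arms had a counterpart in 78.8% (replicate 1) and 86.0% (replicate 2). By width, 31.3% of the 80 clusters of 1301 to 1500 bp in replicate 1 recurred, 42.6% of 68 at 1501 to 1750 bp, 69.5% of 128 at 1751 to 2000 bp and 91.8% of 256 at 2001 to 2250 bp. The shares in replicate 2 were 39.0% of 82, 55.1% of 78, 66.4% of 125 and 98.0% of 254 in the same order of widths. Short narrow clusters of the autosome arms also recurred in part. Their shares in these classes were 35.4%, 34.6%, 70.2% and 95.5% in replicate 1. In replicate 2 they were 45.0%, 53.8%, 79.8% and 97.9%. All 153 wide X clusters of replicate 1 and all 139 of replicate 2 had a counterpart. Among the narrow X clusters of replicate 1, 591 overlapped a narrow X cluster of the replicate set, 82 lay only in wide ones and 9 in none, and in replicate 2 these numbers were 568, 100 and 7.

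**Figure D2:**
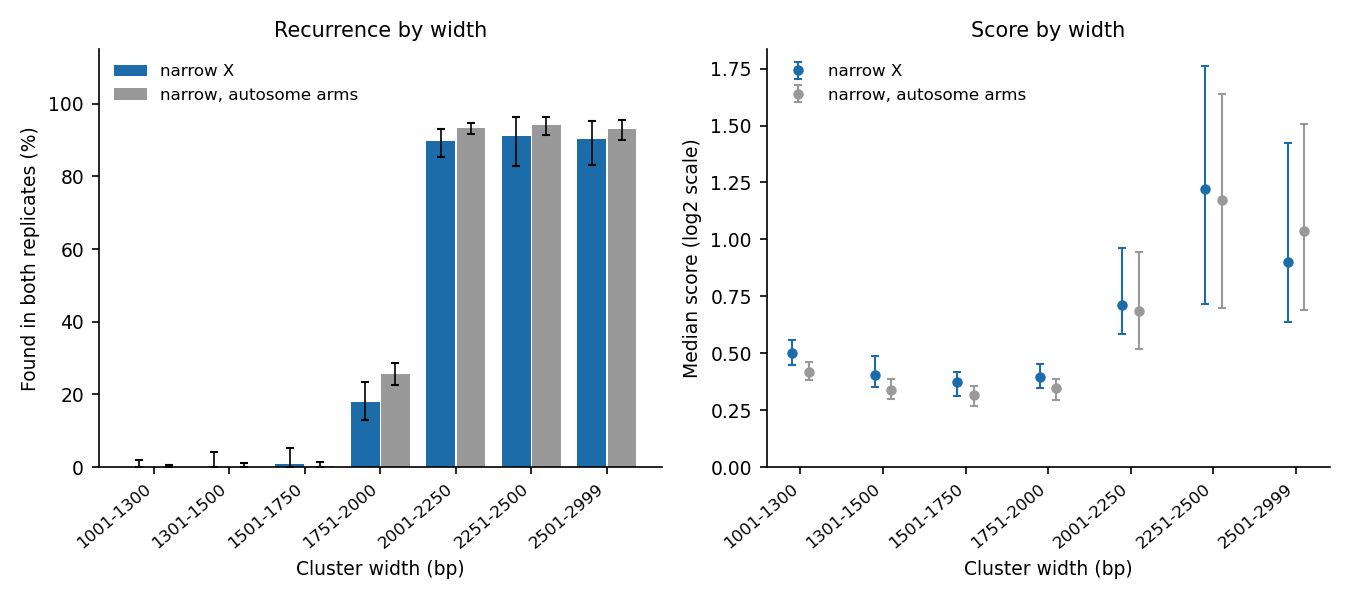
The left panel shows the share of narrow clusters found in both replicates (%) by width class (bp), on X and on the 4 large autosome arms, with exact 95% intervals; the right panel shows the median score (log2 scale) with bars from the lower to the upper quartile. The share is 17.8% on X and 25.5% on autosomes at 1751 to 2000 bp and 89.7% and 93.3% at 2001 to 2250 bp, and the X median score is the higher one in each class but the widest.

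Members that recurred did so at nearly the same place. Recurrence required both replicate clusters to touch the same member of under 3000 bp, which limits how far apart they can lie. The midpoints of their 2 replicate clusters lay a median of 39.5 bp apart, and 331 of 451 were within 100 bp. The replicate clusters shared a median of 94.96% of the bases covered by either. Their median widths were 2076 bp in replicate 1 and 2071 bp in replicate 2, and 389 of the 451 members were wider in the replicate set than in both replicates. A cluster of 3000 bp or more was called at 2 members in replicate 1 and at 2 in replicate 2. In 1 case the replicate 1 and replicate 2 clusters touched different ends of the member and shared no base.

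Scores of the 451 recurring members had a median of 0.79 in replicate 1 and 0.93 in replicate 2, in lists with separate scaling. Pearson r between the replicates was 0.890 and Spearman rho 0.760 across these members, which share both libraries, and 0.928 and 0.920 across the 214 recurring wide X clusters. After each list was centred on its median over these members, the SD of a member's score over the 2 replicates had a median of 0.12 and a 95th percentile of 0.36. Differences of that size between single members are therefore within the spread between replicates.

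**Figure D3:**
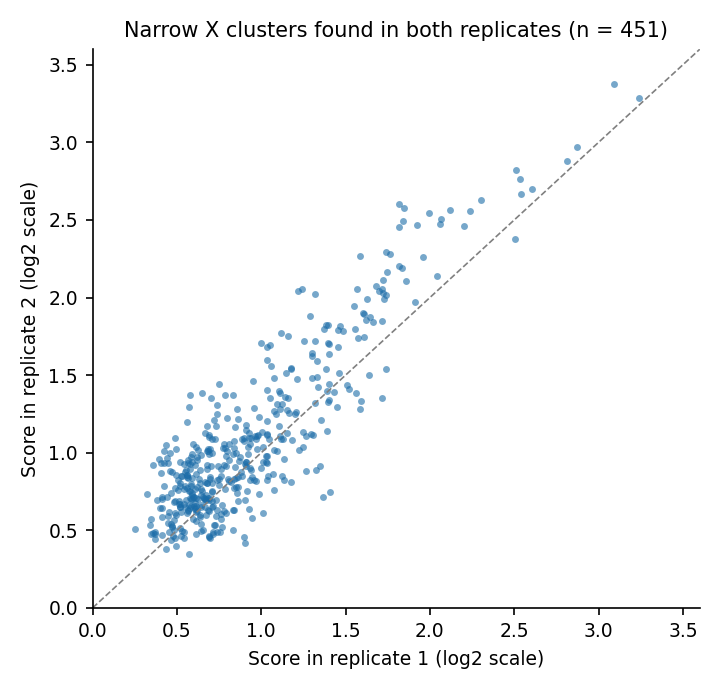
Each point is 1 of the 451 narrow X clusters found in both replicates, with its score (log2 scale) in replicate 1 on the x axis and in replicate 2 on the y axis; the dashed line marks equal scores. Points lie mostly above the line (331 of 451), and the scores of a member differ by up to 0.82 between the lists.

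The strongest recurring members held nearly the same order in both replicates. They were picked by score in the replicate-set list, made from the same libraries, so their high rank in both is partly set by that choice. The highest, at 2210483 to 2212853, had 3.28 as its score in the replicate set, against 3.24 (replicate 1) and 3.29 (replicate 2). The next, at 16109834 to 16112699, scored 3.27, 3.09 and 3.38 in the same lists. Those at 19575994 to 19578623 (2.96, 2.87 and 2.97) and at 1976740 to 1979092 (2.87, 2.82 and 2.88) ranked 3 and 4 among recurring members in either replicate. The first pair changed places between the replicates.

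The next 6 scored between 2.42 and 2.67 in the replicate set. The member at 7595616 to 7597920 (2.67, 2.51 and 2.82) lay 212 bp from a wide cluster of 7144 bp, whose own score was 2.04. The member at 11899927 to 11902907 (2.66, 2.54 and 2.76) lay 82.0 kb from the nearest wide cluster, and that at 11579238 to 11581556 (2.65, 2.60 and 2.70) 25.3 kb. Then came 1868894 to 1871474 (2.59, 2.54 and 2.67), 18205676 to 18207890 (2.49, 2.30 and 2.63) and 13023908 to 13026683 (2.42, 2.51 and 2.38). The last of these ranked 9 in replicate 1 and 21 in replicate 2. These 10 members spanned 2215 to 2981 bp and lay 0.212 to 82.0 kb from the nearest wide cluster.

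Weak members could recur too. The lowest scores among members found in both replicates were 0.25 at 10860367 to 10862271 (0.45 in replicate 1 and 0.49 in replicate 2), 0.30 at 13230960 to 13232810 (0.37 and 0.49) and 0.32 at 18750664 to 18752586 (0.36 and 0.48). All 3 were 1851 to 1923 bp wide. The share found in both replicates was 8.65% in the lowest score quartile of the members (23 of 266), 13.2% in the second (35 of 266), 53.2% in the third (141 of 265) and 94.7% in the highest (252 of 266).

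Several members changed rank between the replicates. The member at 2042709 to 2045310 scored 0.91 in replicate 1 (rank 189 of 451) and 0.42 in replicate 2 (rank 448). That at 658219 to 660424 scored 1.41 (rank 66) and 0.75 (rank 320), and that at 10846849 to 10849036 scored 1.37 (rank 79) and 0.72 (rank 332). All 3 scored higher in replicate 1, while 331 of the 451 members had the higher value in replicate 2, each list in its own scaling.

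The highest-scoring narrow cluster on X had no counterpart in a replicate. It lay at 2745335 to 2746335, was 1001 bp wide, the smallest width in the list, and scored 3.29. The nearest cluster lay 60.1 kb away in replicate 1 and 59.9 kb away in replicate 2. A member of 1311 bp at 19818813 to 19820123 scored 2.40, with its nearest replicate clusters 25.9 kb (replicate 1) and 34.1 kb (replicate 2) away. The other named members found in neither replicate were those at 11434601 to 11435688 (1088 bp, score 1.87), at 22099235 to 22100235 (1001 bp, score 1.58) and at 2202743 to 2203833 (1091 bp, score 1.29). Their nearest clusters in replicates 1 and 2 were 21.1 and 17.9 kb, 1.32 and 1.12 kb, and 0.804 and 0.846 kb away, in the same order of members. In all, 13 of the 349 unmatched members lay in the highest score quartile, and 11 of these 13 were 1300 bp or shorter. By contrast, 23 of the 25 members scoring over 2 recurred in both replicates, the 2 exceptions being the first pair named here. All 19 members of exactly 1001 bp overlapped neither replicate, and in the whole list 100 of 103 clusters of that width did so.

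Narrow clusters occurred along the whole of X. The 22 full windows of 1 Mb held 30 to 66 members, with a median of 48.5 and a mean of 47.8 ± 9.64 (SD over windows). The most were found at 19 to 20 Mb (66 members), where replicate 1 had 42 narrow clusters and replicate 2 had 34, and at 1 to 2 Mb (63 members, with 43 and 40 in the replicates). The fewest were at 14 to 15 Mb (30 members, 20 and 16 in the replicates) and at 4 to 5 Mb (32 members, 17 and 19). Members found in both replicates numbered 11 to 26 per window, with a mean of 20.3 ± 4.25 (SD over windows). Their share of a window's members ran from 30.6% at 21 to 22 Mb to 52.6% in the first Mb. The window at 21 to 22 Mb had 14 narrow clusters in replicate 1 and 22 in replicate 2.

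**Figure D4:**
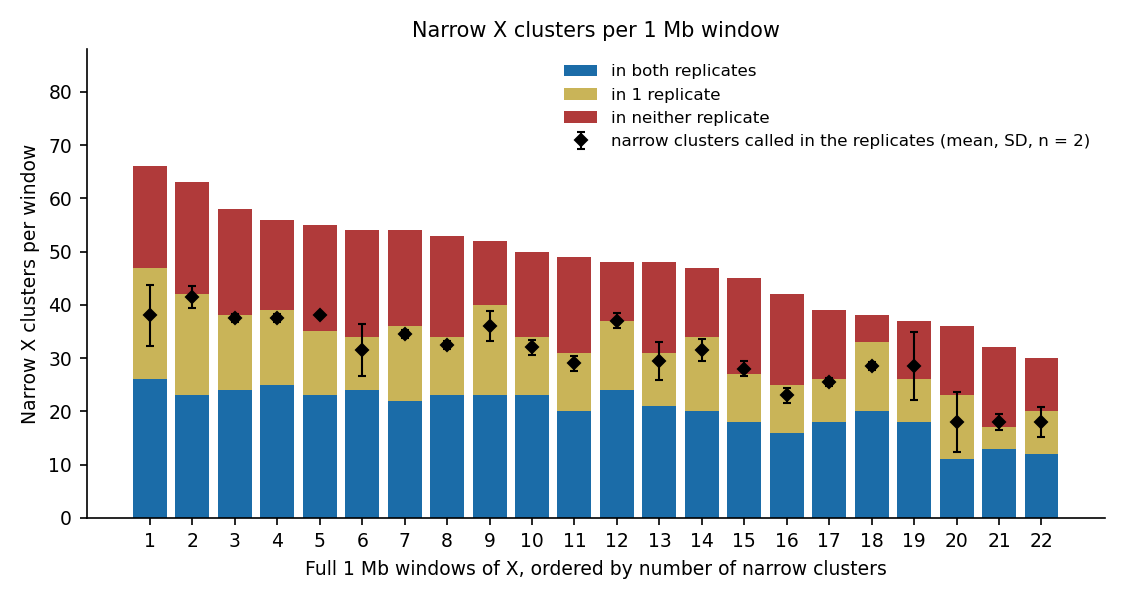
Bars show the number of narrow X clusters in each of the 22 full 1 Mb windows of X, ordered from most (66) to fewest (30) and split by overlap with both, 1 or neither replicate; black diamonds are the narrow clusters called in the single replicates (mean and SD, n = 2). Members found in both replicates lie between 11 and 26 per window, and the replicate means lie between 18 and 41.5.

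Neighbouring members were separated by a median gap of 10.8 kb (quartiles 3.66 and 25.02 kb). Counting clusters of any width, the nearest one lay a median of 3500 bp away, 240 members had another cluster within 1 kb, and 94 had none within 20 kb. The closest pair, 17192907 to 17195765 and 17195774 to 17197963, was 8 bp apart, with scores of 0.72 and 0.52. The longest stretches without a member ran from 14137692 to 14376524 (239 kb, with no wide cluster either) and from 1493472 to 1712115 (219 kb, with 2 wide clusters). The stretch from 1493472 lies in the 1 Mb window with the second highest number of members.

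Most members lay several kb or more from a wide cluster. The median distance to the nearest wide X cluster was 27.9 kb (quartiles 9.22 and 69.5 kb). Within 1 kb of a wide cluster lay 43 members (4.05%), within 5 kb 159 (15.0%), within 20 kb 435 (40.9%) and within 100 kb 883 (83.1%), and 180 (16.9%) lay farther than 100 kb from any. A wide cluster was the direct neighbour of 322 members, and of 36 on both sides. X held 9.81 wide clusters per Mb and the autosome arms 7.06 per Mb, where the median distance of narrow clusters to a wide one was 42.6 kb. With fewer wide clusters in each single replicate, 153 in replicate 1 and 139 in replicate 2, the median distance was 43.2 kb and 53.8 kb there. With wide taken as 5000 bp or more, it was 244 kb for the same members.

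Median scores lay close together over all distances to wide clusters, and the share found in both replicates ran from 38.9% to 46.6%. The median score was 0.54 within 1 kb (43 members), 0.49 at 1 to 5 kb (116 members), 0.51 at 5 to 20 kb (276 members), 0.51 at 20 to 50 kb (271 members), 0.52 at 50 to 100 kb (177 members) and 0.51 beyond (180 members). The upper quartile was higher within 1 kb, at 1.21, against 0.71 to 0.77 in the 5 other classes, with only 43 members behind it. That share was 46.5% within 1 kb (exact 95% interval 31.2 to 62.3%) and 38.9% beyond 100 kb (31.7 to 46.4%). The intervals overlapped, which does not show that the shares are equal. The share found in neither replicate was lowest at 1 to 5 kb (28.4%) and highest beyond 100 kb (38.3%). Across all 1063 members the Spearman rho of score and distance was -0.021. The rho between a member's score and that of its nearest wide cluster was -0.030, and that between neighbouring members along X was -0.010. Each of these describes clusters of 1 list from shared libraries.

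**Figure D5:**
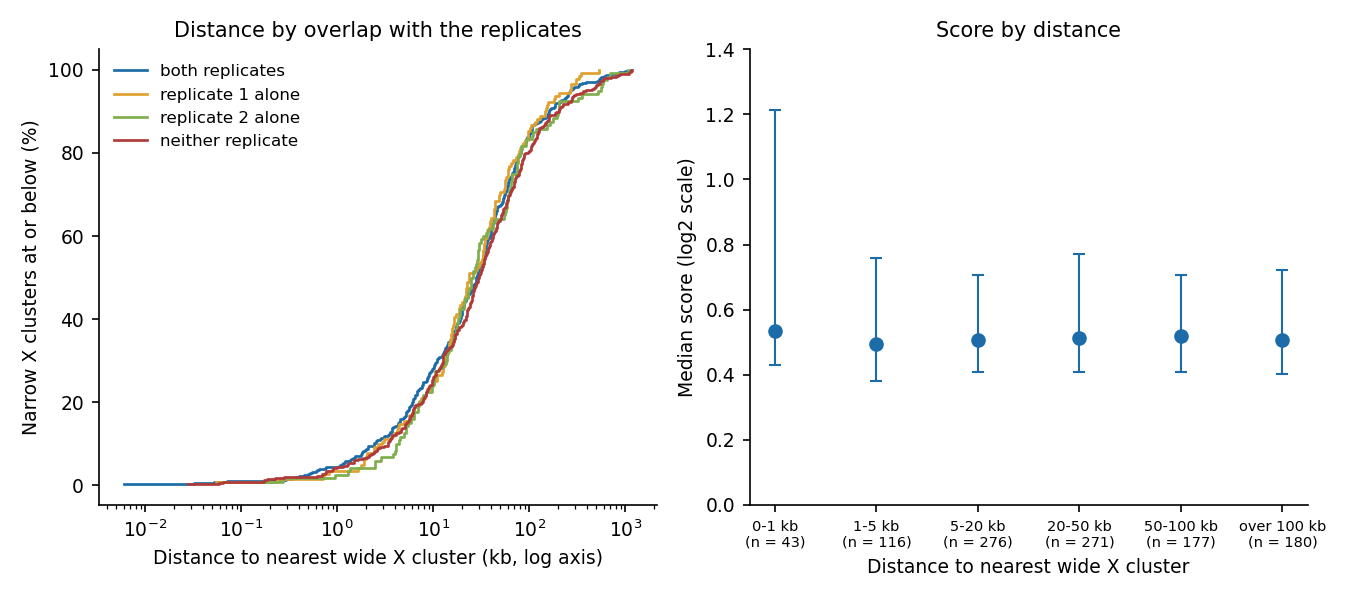
The left panel shows the cumulative share of narrow X clusters (%) by distance to the nearest wide X cluster (kb, log axis) for members in both replicates, in 1 or in neither; the right panel shows the median score (log2 scale) with its quartiles in 6 distance classes. The 4 curves run close together, with medians of 28.2 kb (both), 23.6 kb (replicate 1 alone), 25.4 kb (replicate 2 alone) and 29.7 kb (neither), and the median scores lie between 0.49 and 0.54.

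The most remote members lay towards the centromere-proximal end of X, where wide clusters were absent. Beyond the last wide cluster, which ended at 21248666, there were 31 members with a median score of 0.53. Of these, 12 (38.7%) recurred in both replicates, against 42.4% of all members and 53.5% of the whole list, wide clusters included. The 5 recurring members farthest from a wide cluster were at 22408322 to 22410014 (1160 kb away, score 0.37), 22256090 to 22258346 (1007 kb, score 1.15), 22113417 to 22115495 (865 kb, score 0.76), 22101381 to 22103516 (853 kb, score 0.75) and 21953808 to 21955867 (705 kb, score 0.62). In replicate 1 they scored 0.51, 1.05, 0.68, 0.59 and 0.57, and in replicate 2 0.67, 1.35, 1.01, 0.94 and 0.66, in the same order. The longest series of members without a wide cluster between them held 48 members over 1.14 Mb, from 19777866 to 20922011.

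Set beside wide X clusters, narrow ones were weaker. The median score was 0.51 for narrow and 1.19 for wide X clusters, a difference of -0.68 on the log2 scale. By the widths in each replicate list the medians were 0.72 for narrow and 1.35 for wide clusters in replicate 1, and 0.85 and 1.65 in replicate 2, a mean difference of -0.72 ± 0.12 (SD, n = 2). Of the narrow clusters 15.0% scored over 1, against 65.5% of the wide ones and 17.3% of narrow clusters on the autosome arms. Scores over 2 were reached by 25 of 1063 narrow and 28 of 220 wide clusters, a smaller share of the narrow ones. Yet the highest scores on X were narrow, and the highest wide cluster reached 2.55. The top narrow score, 3.29, belonged to a member found in neither replicate, and the highest among members found in both was 3.28. Width and score come from the same calls, so the difference is a description. With 2 replicates an exact sign-flip test of such within-replicate differences cannot give a two-sided p below 0.5.

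Narrow clusters on X were also set beside the 3975 narrow clusters of the 4 large autosome arms. They were denser on X, with 47.4 per Mb against 41.1 per Mb on the 4 arms together and 37.8 to 42.6 per Mb on single arms. Members found in both replicates did not show this surplus and occurred at 20.1 per Mb on X and 20.1 per Mb on the autosome arms, within the range of 17.4 to 21.4 per Mb over single arms. Narrow clusters that failed to recur in both replicates stood at 27.3 per Mb on X, above the 20.4 to 21.8 per Mb on single autosome arms. In the single replicates, all narrow clusters together numbered 30.4 per Mb (replicate 1) and 30.1 per Mb (replicate 2) on X. Single autosome arms held 25.2 to 29.8 per Mb and 23.9 to 29.2 per Mb. Narrow clusters with a counterpart in the other replicate numbered 23.8 ± 0.536 per Mb on X (SD, n = 2). On the autosome arms they numbered 22.6 ± 0.278 per Mb (SD, n = 2). Against the 4 arms together, X was higher in replicate 1 (23.5 against 22.4 per Mb) and in replicate 2 (24.2 against 22.8 per Mb). Those without a counterpart numbered 6.42 ± 0.757 per Mb on X and 4.88 ± 1.64 per Mb on the autosome arms (SD, n = 2 each). Against the 4 arms together, X was again higher in replicate 1 (6.96 against 6.03 per Mb) and in replicate 2 (5.89 against 3.72 per Mb). Single arms were not compared for either count. The differences of X minus autosome arms averaged 1.24 ± 0.258 and 1.55 ± 0.883 per Mb (SD, n = 2 each), with an exact sign-flip p of 0.5 for both, the smallest that 2 replicates allow.

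The scores of weak narrow clusters began at a higher level on X. The 5th percentile of the score was 0.31 on X and 0.25 to 0.26 on the 4 autosome arms in the replicate set. By each replicate's own widths it was 0.43 on X and 0.35 to 0.38 on the arms in replicate 1, and 0.48 on X and 0.43 to 0.44 on the arms in replicate 2. X lay above all 4 arms in each of the 3 lists. The 95th percentile in the replicate set, 1.64 on X, lay within the 1.64 to 1.79 of the arms. At equal width the median score on X exceeded that on the autosome arms by 0.08 at 1001 to 1300 bp, 0.07 at 1301 to 1500 bp, 0.06 at 1501 to 1750 bp and 0.05 at 1751 to 2000 bp. The difference was 0.02 at 2001 to 2250 bp, 0.05 at 2251 to 2500 bp and -0.14 at 2501 to 2999 bp. By the widths in each replicate, X had the higher median in both replicates in each class from 1301 to 2250 bp. At 2251 to 2500 bp it was 1.16 on X and 1.35 on the autosome arms in replicate 1, but 1.71 and 1.60 in replicate 2. At 2501 to 2999 bp it was 1.21 on X and 1.20 on the arms in replicate 1, and 1.41 and 1.45 in replicate 2.

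At intermediate scores, a smaller share of narrow clusters was found in both replicates on X than on autosomes, and fewer of the X clusters were over 2000 bp. In the score range of the third quartile of the members, 0.51 to 0.74, 53.2% of 265 narrow X clusters were found in both replicates (exact 95% interval 47.0 to 59.3%), against 85.2% of 553 narrow autosomal clusters (81.9 to 88.03%) and 81.8 to 89.1% on single arms. In the second quartile the shares were 13.2% (9.34 to 17.8%) on X and 34.5% (31.1 to 37.95%) on autosomes. In the highest quartile they were close, at 94.7% (91.3 to 97.1%) on X and 96.0% (94.7 to 97.1%) on autosomes. Width differed alongside: in the third quartile 61.5% of the X clusters and 89.0% of the autosomal ones were over 2000 bp, and 29.1% and 8.14% were 1300 bp or shorter. Its part in the difference of recurrence was not tested. At a fixed width of over 2000 bp, 90.1% (87.0 to 92.7%) of X and 93.5% (92.3 to 94.6%) of autosomal narrow clusters were found in both replicates. These quartiles were set on the X members, and clusters are not replicates, so the values describe the lists.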

How the data were processed

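MOF ChIP-seq was analysed from 3 cluster lists: 1 for each of the 2 ChIP libraries and 1 for the replicate set. Reads were aligned with Bowtie 0.12.7, per the submitters' processing notes, and coordinates are on FlyBase release 5 and count from 1, per the file headers. No label or header used here names the peak caller or its threshold, or says how both replicates were joined into the replicate set. The authors deposited 1 score per cluster, an enrichment value on what was read as a log2 scale, with no scale stated and 1 scaling constant per list, because 2 to the power of score differences gave ratios of whole numbers (denominator up to 1000, relative tolerance 1e-10) for 98.4% of clusters in the list of both replicates and 99.8% in each single list, against at most 0.794% with powers of e. Scores were therefore compared within a list.

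Narrow clusters were those on X under 3000 bp wide in the replicate-set list. Recurrence required 1 base shared with a replicate cluster. Distances were counted as the bases between cluster edges. Intervals on shares are exact (Clopper-Pearson, 95%), cover counting error only and treat neighbouring clusters as independent. Library depth is unknown. Contrasts within a library have 2 values, for which an exact two-sided sign-flip test cannot give a p below 0.5, and no test was made over clusters. The overlap and distance calculations were tested on 20 simulated lists of 1000 clusters and recovered all 600 planted overlaps in each. The members, width classes and comparisons were chosen with earlier results of these data known.

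Clusters were named in the text by rank: the 10 highest-scoring and the 5 most distant from a wide cluster among those found in both replicates, the 5 highest-scoring found in neither, the 3 lowest-scoring found in both, the 3 on either side of the width limit, and the 3 with the largest difference in rank between replicates. Alternatives were another width limit, merging of neighbours within 500 bp, a reciprocal overlap of 50 percent, the clusters above the median score, other ways of measuring distance, and each replicate alone. Gene names, promoters and sequences of the clusters were not used here. Software versions were Python 3.11.15, pandas 2.3.3, numpy 2.4.6, matplotlib 3.10.9 and scipy 1.17.1.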

Additional observations from a re-analysis of the deposited data

How the results depend on the processing

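Of the 1063 members, 53.7% to 55.9% overlapped a cluster of 1 replicate when the other was left out. By the widths in each single list, the number of narrow X clusters was 675 to 682, the score difference between narrow and wide X clusters -0.80 to -0.63 and the median distance to a wide cluster 43182 to 53833 bp. When clusters below the list's median score were left out, there were 514 narrow X clusters and 75.3% were found in both replicates. A width limit of 2000 bp gave 606 members, of which 6.60% were found in both. Leaving out members under 1301 bp, a setting added once the values were known, gave 51.7%. Members found in both replicates had a median score of 0.81. With wide taken as 5000 bp or more, the median distance was 243591 bp. The other settings run moved the values by less than the spread between replicates, the counting interval or, for counts, 1.5 times. These were a width limit of 5000 bp for number and score, one of 2000 bp for score, the 1301 bp minimum for number, score, score difference and distance, merging for number and recurrence, a reciprocal overlap of 50 percent, midpoint distances and the clusters above the median score for distance. For the median score, the spread between replicates also contains the separate scaling of the 2 lists. The 2000 bp limit lowered the median score from 0.51 to 0.43. The median score was lower for narrow than for wide X clusters in all 3 lists. No paired analysis was possible because ChIP and input, the groups that share replicate numbers, were not compared: per the labels, each input served one cluster list, and no input list was used. Library depth is not known, and a missing counterpart in a replicate cannot be told apart from one below the authors' threshold.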
